A study of Mus musculus with 121 samples.

Results

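RAD21 peaks, the sites where chromatin immunoprecipitation with sequencing (ChIP-seq) finds the cohesin complex, were compared between cells with the transcription factor YY1 and cells depleted of it. Peaks listed in both conditions (overlap of at least 1 bp) are called kept, untreated peaks with no auxin counterpart lost, and auxin peaks with no untreated counterpart auxin-only. The 3 classes hold 52974 RAD21 intervals, out of 406319 peaks in the 19 ChIP-seq peak lists used here. The cells were the YY1-AID subline of G1E-ER4, a line of mouse erythroid progenitors derived from embryonic stem cells. In this subline YY1 is fused to a degron, so that adding auxin marks the protein for rapid destruction. RAD21 was measured in asynchronous cultures, untreated or after 4 h of auxin, with the antibody abcam ab992 and 2 libraries per condition. The labels number the libraries without saying whether they are separate cultures. Both conditions carry the tagged YY1, both come from 1 subline, and 1 peak list was deposited per condition. The study also mapped YY1, CTCF, LDB1 and H3K27ac in this subline, untreated or after 4 h of auxin. Loops and domain boundaries came from Micro-C, a nucleosome-resolution contact assay, of untreated and auxin-treated cells. For Micro-C and for a second YY1 antibody the labels used here give no auxin time. A closing comparison uses YY1 peaks of a CTCF-AID subline (untreated or 4 h of auxin) and of nocodazole-treated G1E-ER4 cells.

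RAD21 is the kleisin subunit that closes the cohesin ring. Cohesin is thought to extrude chromatin into loops and to stop where it meets CTCF, a zinc finger protein that binds DNA, so most strong RAD21 peaks in mammalian cells lie at CTCF sites. Cohesin is also loaded or held at active promoters and enhancers, where CTCF may be absent. YY1 binds promoters and enhancers and has been described as a factor that helps to connect them. LDB1 bridges enhancers and promoters in erythroid cells together with GATA1 and TAL1, and H3K27ac is a histone acetylation found at active enhancers and promoters.

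The erythroid label was checked in RNA-seq of untreated cells of this subline (3 replicates of 26011602 to 26210181 counts), with counts scaled to the column total as CPM. Of the erythroid markers checked, Hbb-b1 is not listed in the file and the others had counts in each replicate. Gata1, the erythroid master regulator, was at 2472, 2721 and 2343 CPM. Counts by gene symbol do not tell an introduced copy of a gene from the endogenous one, so the Gata1 value alone does not settle the label. The progenitor receptor gene Kit was at 335, 300.1 and 274 CPM. Late markers were low, with the membrane transporter gene Slc4a1 between 2.40 and 3.61 CPM and the heme synthesis gene Alas2 between 4.57 and 9.15 CPM. Pou5f1, Sox2, Cd3e and Cd14, which mark pluripotent, lymphoid and myeloid cells, had 0 counts, and Nanog and Csf1r were at most at 0.343 and 0.307 CPM. Rad21 itself was at 403, 419.8 and 389 CPM.

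RAD21 had more peaks after YY1 depletion than before. The untreated list holds 39745 peaks and the auxin list 50028, which is 10283 more. Of the untreated peaks, 36799 were kept (92.6%, 95% interval 92.3 to 92.8) and 2946 were lost, a share of 7.41%. Of the auxin peaks, 13229 were auxin-only, a share of 26.4% (26.1 to 26.8). There were 4.49 auxin-only peaks for every lost peak. These shares come from the comparison that defines the classes and are given as a description. Each of the 36799 kept peaks has identical coordinates in both lists, so a class says in which lists an interval stands, not how high its peak was. The deposited lists carry no height, and a smaller share of cells with cohesin at a site cannot be told apart from less cohesin per cell.

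All percentages with an interval are shares of peaks with the Wilson 95% interval, and differences of shares are percentage points with the Newcombe 95% interval. They cover counting error only. With 1 list per condition there is no replicate check and no test, and neighbouring peaks are not independent. The depth of the RAD21 libraries was not analysed here, and its part in the larger auxin list was not tested.

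The excess of auxin-only over lost peaks was larger for RAD21 than for CTCF, H3K27ac and LDB1, counted with the same overlap rule. CTCF had 2.29 auxin-only peaks per lost peak, H3K27ac 1.77 and LDB1 0.961. CTCF lost 7.16% of its untreated peaks, close to the RAD21 share, while 15.0% of its auxin peaks were auxin-only. LDB1 lost 12.9% and H3K27ac 8.25%, and 12.5% and 13.9% of their auxin peaks were auxin-only. YY1, the depleted factor, lost 92.4% of its untreated peaks with the antibody used for the main YY1 list and 80.4% with the other one.

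CTCF separated the classes most. An untreated CTCF peak lay at 82.8% of kept RAD21 peaks, at 33.8% of lost peaks and at 44.6% of auxin-only peaks. The lost class differed from the kept class by -49.0 points (-50.7 to -47.2) and the auxin-only class by -38.2 points (-39.1 to -37.2). Both differences were below 0 on 20 of 20 chromosomes. A kept peak's midpoint was a median of 30 bp from the nearest untreated CTCF peak, against 1640.5 bp for lost and 1107 bp for auxin-only peaks. Of untreated RAD21 peaks with CTCF, 96.8% were kept (30454 of 31449), and without CTCF 76.5% (6345 of 8296).

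**Figure D1:**
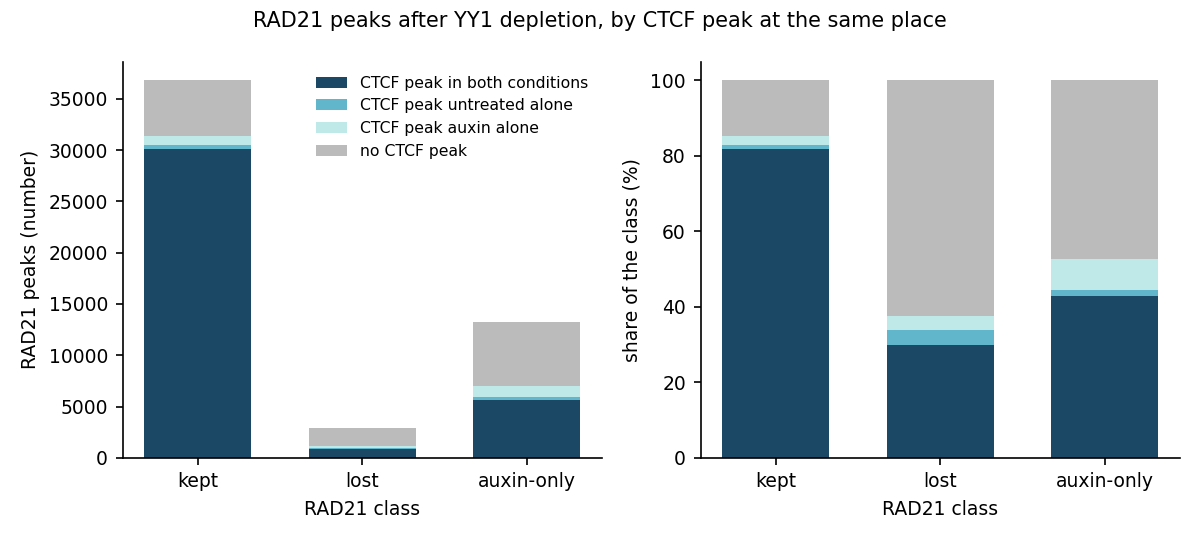
Kept, lost and auxin-only RAD21 peaks as numbers (left) and as shares of the class in percent (right). Colours give whether a CTCF peak lay at the RAD21 peak in both conditions, in one or in neither; CTCF in both conditions makes up 81.8% of kept peaks, 29.9% of lost and 42.9% of auxin-only peaks.

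RAD21 peaks were kept more often where the CTCF peak at the same place was kept than where it was lost. Where the CTCF peak was itself kept, 97.2% of RAD21 peaks were kept (30107 of 30988). Where the CTCF peak was lost, 75.3% were kept (347 of 461), a difference of 21.9 points (18.2 to 26.0). With no CTCF in either list the share was similar, 74.6%, and with CTCF in the auxin list alone it was 89.5%. Most auxin-only RAD21 peaks with CTCF did not lie at a new CTCF peak. Of the 13229 auxin-only peaks, 5669 stood on CTCF present in both conditions, 1085 on CTCF listed in auxin alone and 6247 on no CTCF in either list. CTCF listed in auxin alone was still more frequent at auxin-only RAD21 peaks (8.20%) than at kept ones (2.59%). Of all auxin CTCF peaks, 15.0% were auxin-only. Seen from the CTCF sites, RAD21 covered 53.2% of all 59085 untreated CTCF peaks before auxin and 61.5% after. At the 4230 lost CTCF peaks the share was low before and after, 10.9% and 13.6%. RAD21 was gained at 228 of these lost CTCF peaks and lost at 115, beside a RAD21 list 1.26 times as long after auxin. At the 54855 kept CTCF peaks it was gained at 5667 and lost at 880. Of the lost CTCF peaks 462 had RAD21 before auxin, and of the kept CTCF peaks 30987 did, so RAD21 loss was more frequent where CTCF was lost.

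Taken without regard to CTCF, lost and auxin-only RAD21 peaks lay more often at active chromatin than kept ones. Among RAD21 peaks without CTCF the order of kept and lost turned, as given below. H3K27ac was at 24.1% of kept, 36.8% of lost and 33.8% of auxin-only peaks. LDB1 was at 9.65% of kept, 16.7% of lost and 15.1% of auxin-only peaks. The lost class exceeded the kept class by 12.7 points for H3K27ac and by 7.08 points (5.75 to 8.51) for LDB1. When every interval was cut to the 200 bp around its centre, which shortens broad H3K27ac regions, the H3K27ac difference was 4.53 points. The classes differed much less in YY1. An untreated YY1 peak lay at 19.9% of kept, 21.2% of lost and 21.1% of auxin-only peaks, and the lost class differed from the kept class by 1.40 points (-0.10 to 2.97), an interval that holds 0. The auxin-only class differed by 1.29 points (0.49 to 2.10), and by 1.98 points (1.44 to 2.53) with the second YY1 antibody. Under a stricter overlap the YY1 difference changed sign, at -0.55 points for lost and -0.082 for auxin-only peaks when at least 50% of either peak had to be covered.

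**Figure D2:**
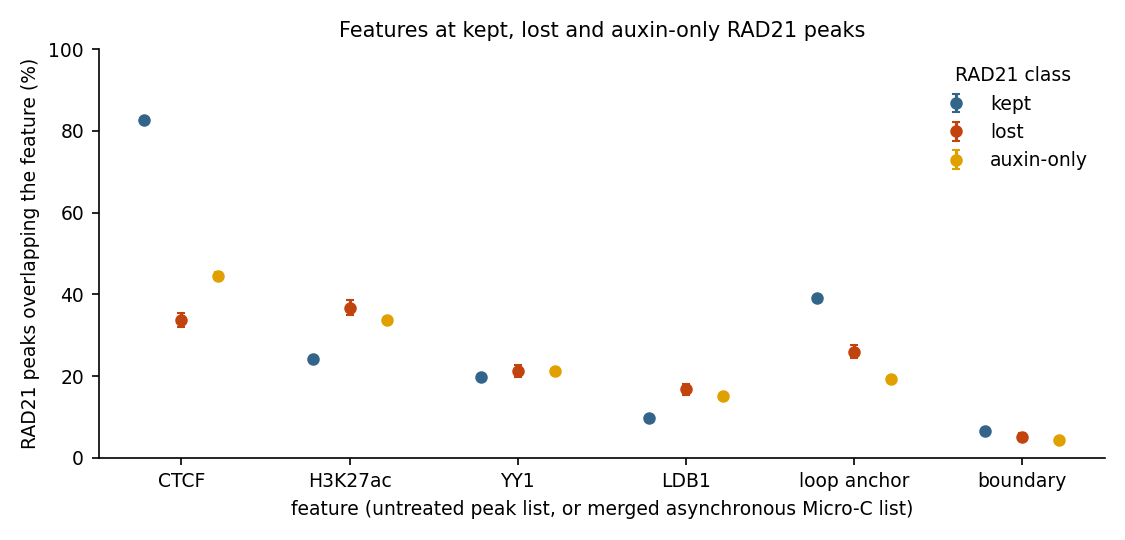
Percent of kept, lost and auxin-only RAD21 peaks that overlap an untreated CTCF, H3K27ac, YY1 or LDB1 peak, a loop anchor or a boundary of asynchronous cells; bars are Wilson 95% intervals, many smaller than the point. CTCF falls from 82.8% of kept to 33.8% of lost peaks, while YY1 stays between 19.9% and 21.2%.

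The near-equal YY1 shares hid a difference that appears once CTCF is held fixed. Over all untreated RAD21 peaks, 92.1% of those with a YY1 peak were kept and 92.7% of those without, a difference of -0.60 points (-1.28 to 0.04). Among RAD21 peaks without CTCF, 84.8% of those with YY1 were kept (2978 of 3510) and 70.4% of those without (3367 of 4786). RAD21 peaks that had YY1 before depletion were thus kept more often here, by 14.5 points (12.7 to 16.2). This difference was above 0 on 20 of 20 chromosomes, the smallest being 3.70 points. Among RAD21 peaks with CTCF the shares were 97.9% and 96.7%, a difference of 1.21 points (0.69 to 1.65) that was above 0 on 18 of 20 chromosomes. With the second YY1 antibody it was 0.084 points (-0.99 to 0.90), and the difference without CTCF was 13.1 points.

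RAD21 peaks with YY1 carried other partners than those without. CTCF lay at 55.7% of RAD21 peaks with YY1 and at 85.0% of those without. H3K27ac lay at 69.7% and 13.9%, and LDB1 at 30.9% and 5.00%. The difference without CTCF was therefore also taken with these marks held fixed. With H3K27ac and LDB1 both present and CTCF absent, 89.5% of RAD21 peaks with YY1 were kept and 81.6% of those without, a difference of 7.92 points. Without CTCF and without H3K27ac the shares were 73.0% and 66.0%, a difference of 6.98 points. The second antibody gave 7.21 points with both marks and 13.6 points (-2.40 to 23.7) without H3K27ac, the latter from only 35 peaks with YY1. Without CTCF and without LDB1 the differences were 12.2 and 15.2 points with the first and the second antibody. The auxin-only share ran the other way. It is taken over kept and auxin-only peaks, so it holds the same kept peaks and is not a separate observation. Among auxin RAD21 peaks without CTCF, 43.9% were auxin-only where YY1 had been present and 59.8% where it had not.

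**Figure D3:**
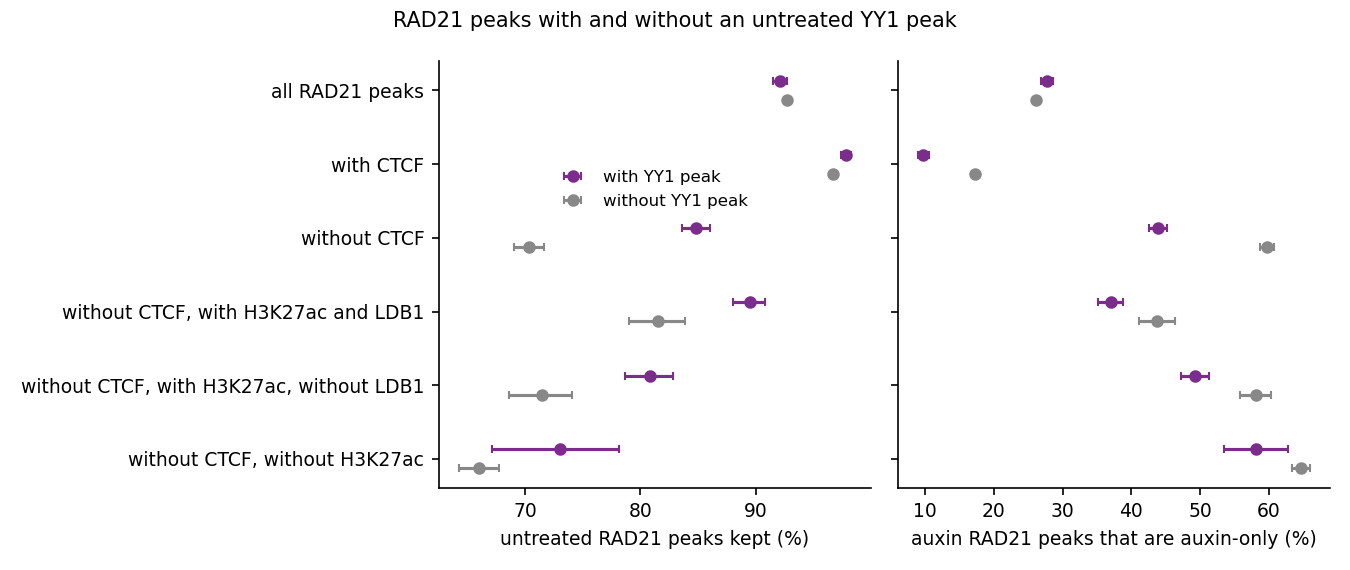
Percent of untreated RAD21 peaks kept (left) and percent of auxin RAD21 peaks that are auxin-only (right), for peaks with and without an untreated YY1 peak, by other partners at the site; bars are Wilson 95% intervals. Over all peaks the kept shares are 92.1% and 92.7%, and without CTCF 84.8% and 70.4%.

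RAD21 peaks were also split by whether their YY1 peak outlasted auxin. Without CTCF, 90.5% of RAD21 peaks were kept where the YY1 peak was kept (448 of 495), 83.9% where it was lost (2530 of 3015) and 70.4% where there was none. With CTCF the shares were 96.8%, 98.0% and 96.7%. Seen from the YY1 sites, RAD21 covered 18.5% of the 38055 lost YY1 peaks before auxin and 23.2% after. At the 3108 kept YY1 peaks the shares were 28.8% and 40.5%. The whole RAD21 list was 1.26 times as long after auxin. The rise at lost YY1 peaks was no larger than this growth of the list, while the rise at kept YY1 peaks was larger. At YY1 peaks with no CTCF in either condition RAD21 coverage was 9.77% before and 14.5% after. RAD21 peaks with no CTCF in either condition numbered 7230 before and 11638 after, a larger relative growth than that of the whole list.

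For LDB1 and H3K27ac the difference over all peaks and that without CTCF had opposite signs. Over all untreated RAD21 peaks, those with LDB1 were kept less often (87.8% against 93.1%). Among peaks without CTCF, those with LDB1 were kept more often, 85.0% against 71.4%, a difference of 13.6 points (11.8 to 15.3). For H3K27ac the shares were 89.1% against 93.7% over all peaks and 82.1% against 66.6% without CTCF. Among RAD21 peaks with CTCF the intervals held 0, at -0.25 points (-1.60 to 0.74) for LDB1 and 0.22 points (-0.35 to 0.72) for H3K27ac. In each case the peaks with the partner had CTCF less often than the rest.

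The 16 combinations of CTCF, YY1, LDB1 and H3K27ac fell into a group with CTCF and a group without. RAD21 peaks with CTCF and YY1 and neither of the other partners were kept in 98.9% of 2091 cases, and 6.21% of the auxin peaks of this kind were auxin-only. With CTCF alone, 96.6% of 24473 peaks were kept and 17.4% of auxin peaks were auxin-only. Without CTCF, the combination of YY1, LDB1 and H3K27ac had the highest share kept, 89.5% of 1854 peaks, with 37.0% of auxin peaks auxin-only. YY1 with H3K27ac was kept in 80.8% of 1408 cases and LDB1 with H3K27ac in 81.6% of 971. Peaks with none of the 4 partners were kept in 66.3% of 2599 cases, and 64.7% of auxin peaks of this kind were auxin-only. RAD21 peaks with LDB1 alone (166 peaks) were kept in 61.4% of cases (53.9 to 68.5), an interval that holds the share of peaks with no partner.

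**Figure D4:**
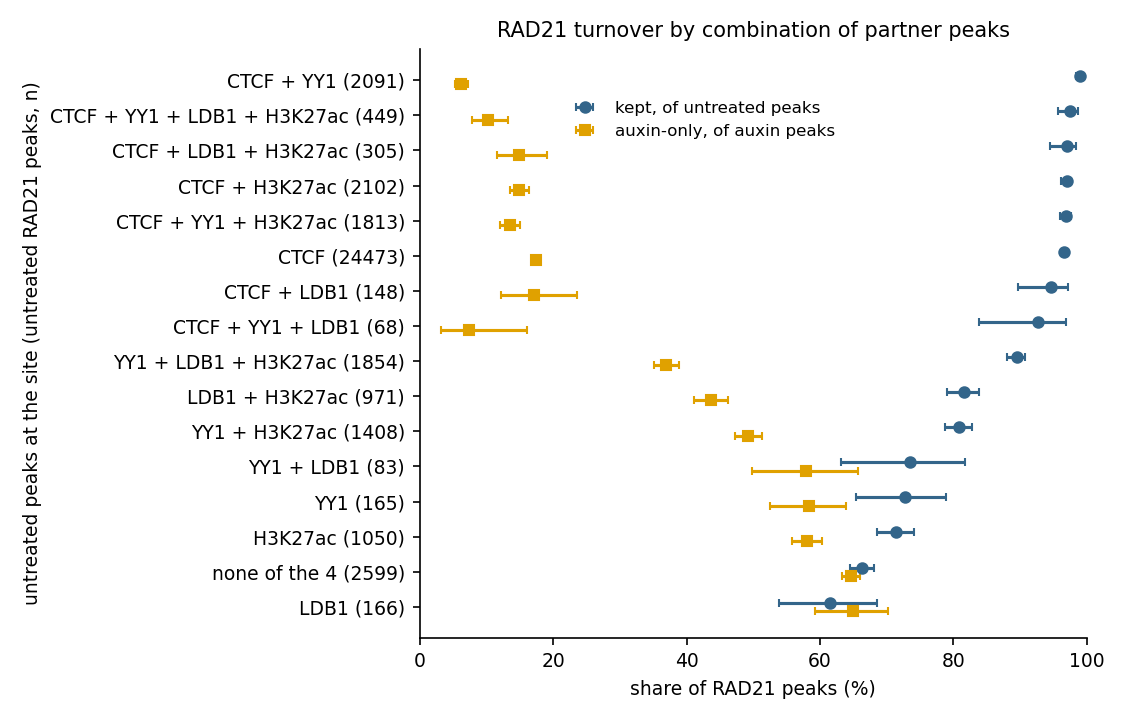
Percent of untreated RAD21 peaks kept (circles) and percent of auxin RAD21 peaks that are auxin-only (squares) for each combination of untreated CTCF, YY1, LDB1 and H3K27ac peaks, with Wilson 95% intervals and the number of untreated RAD21 peaks in brackets. Combinations with CTCF are at the top, and CTCF alone is kept in 96.6% of cases against 66.3% for none of the 4.

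LDB1 and H3K27ac sites carried RAD21 more often after auxin, with and without CTCF, beside a RAD21 list that was 1.26 times as long. RAD21 covered 22.6% of untreated LDB1 peaks before auxin and 31.0% after, and 18.5% and 26.8% of those with no CTCF in either condition. It covered 37.9% of untreated H3K27ac regions before and 48.1% after, and 21.3% and 31.5% of those with no CTCF in either condition. Broad H3K27ac regions of at least 5 kb (1402 regions) were covered in 81.7% of cases before and 89.2% after. Regions under 5 kb were covered in 34.9% and 45.4%. Per length the broad regions held fewer RAD21 peaks, with 17.7 kept peaks per 100 kb against 21.7 in regions under 5 kb.

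Kept RAD21 peaks were the class most often at loop anchors. The merged loop list of asynchronous cells has 12738 loops with 20294 distinct anchors. Kept peaks lay at an anchor in 39.1% of cases, lost peaks in 25.9% and auxin-only peaks in 19.3%. The differences from kept peaks were -13.2 points for lost and -19.8 points for auxin-only peaks. The gap depended on CTCF. With CTCF, 40.9% of kept, 17.0% of lost and 15.2% of auxin-only peaks lay at anchors, and 15.0% of the 21741 CTCF peaks without RAD21 in either list did. Lost and auxin-only RAD21 peaks at CTCF sites were thus at anchors about as often as CTCF peaks that never carried RAD21. Without CTCF, kept and lost peaks lay at anchors in 30.6% and 30.4% of cases, a difference of -0.13 points (-2.44 to 2.23), and auxin-only peaks in 22.5%.

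**Figure D5:**
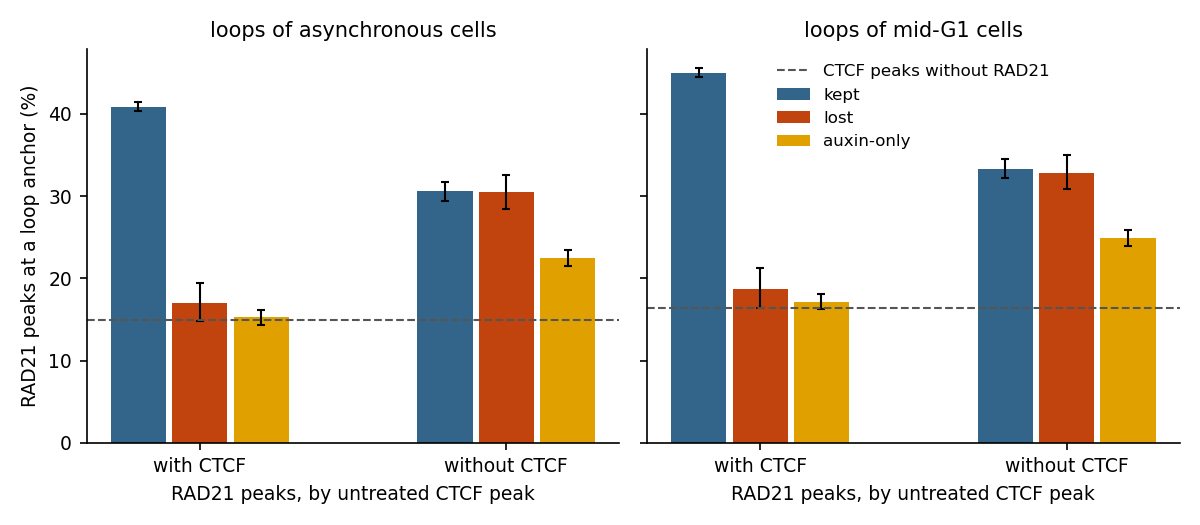
Percent of kept, lost and auxin-only RAD21 peaks at a loop anchor, split by an untreated CTCF peak, for loops of asynchronous (left) and mid-G1 (right) cells; bars are Wilson 95% intervals and the dashed line marks CTCF peaks without RAD21. In asynchronous cells 40.9% of kept peaks with CTCF lie at an anchor against 17.0% of lost ones.

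Few loop anchors lost RAD21 altogether. Anchors with a RAD21 peak made up 70.3% before auxin and 73.6% after. RAD21 was in the untreated list alone at 180 anchors and in the auxin list alone at 849. RAD21 lay at both anchors of 62.3% of loops before auxin and of 66.4% after. Of the 7801 loops paired by RAD21 in both conditions, 92.2% also had CTCF at both anchors and 25.9% had YY1 at both. The 656 loops paired in auxin alone had CTCF at both anchors in 49.1% of cases and YY1 at both in 50.3%. The 130 loops paired in untreated cells alone had nearly the same makeup, 49.2% for CTCF and 48.5% for YY1. Median spans were 180, 160 and 190 kb. The loop list merges both conditions, so these counts describe where RAD21 lay, not whether a loop weakened.

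Long loops show the 2 kinds of change. The longest with an auxin-only peak at an anchor that had no untreated RAD21 joined chr12:29270001-29280000 with chr12:31260001-31270000, a span of 1990 kb. Its left anchor had 1 RAD21 peak in each condition and an untreated CTCF peak, and its right anchor had YY1 and H3K27ac, no CTCF and 1 auxin-only RAD21 peak. The next joined chr8:110110001-110120000 with chr8:112080001-112090000 (1970 kb), and its left anchor had CTCF, YY1, H3K27ac and 1 auxin-only RAD21 peak. The loop from chr2:172170001-172180000 to chr2:174120001-174130000 (1950 kb) had 2 auxin-only peaks, 2 YY1 peaks, LDB1, H3K27ac and no CTCF at the left anchor. Among loops with an anchor whose untreated RAD21 was lost, the longest joined chr16:54840001-54850000 with chr16:56670001-56680000 (1830 kb), with no CTCF, YY1, LDB1 or H3K27ac peak at either anchor. The loop from chr4:138520001-138530000 to chr4:140240001-140250000 (1720 kb) lost its only RAD21 peak at a left anchor with CTCF, YY1, LDB1 and H3K27ac. Its right anchor, which also had CTCF, went from 1 RAD21 peak to 2. The loop from chr10:121060001-121065000 to chr10:122630001-122635000 (1570 kb) lost 1 RAD21 peak at a left anchor with YY1 and H3K27ac and no CTCF. All coordinates are those of the mouse build mm9, for which no gene annotation was used.

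Boundaries, the edges between domains of preferred contact, carried RAD21 less often than loop anchors did. Boundaries of asynchronous cells numbered 6070, and 32.6% overlapped a RAD21 peak before auxin and 36.2% after. RAD21 was gained at 262 and lost at 43, while 3829 had none in either condition. Of kept RAD21 peaks 6.66% lay at a boundary, of lost 5.16% and of auxin-only 4.41%. Among peaks without CTCF the order of kept and lost turned, with 3.75% of kept and 5.07% of lost peaks at a boundary, a difference of 1.32 points (0.31 to 2.48). Edges of domains listed for both conditions (3913 boundaries) overlapped RAD21 in 41.6% of cases before and 46.1% after. Edges only of untreated-specific domains (905 boundaries) did so in 15.9% and 17.8% of cases, and edges only of auxin-specific domains (1153) in 16.0% and 18.3%. An auxin-only RAD21 peak lay at 3.98% of the untreated-specific edges and at 3.99% of the auxin-specific ones. The share with an auxin-only RAD21 peak was thus nearly the same at edges of untreated-specific and of auxin-specific domains. An edge with such a peak may already have carried another RAD21 peak before auxin.

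Lost and auxin-only peaks were spread over the genome. Of 2410 bins of 1 Mb with RAD21, 51.4% held a lost peak and 87.3% an auxin-only peak. The bin with the most lost peaks was chr1:43000001-44000000, with 12 lost, 35 kept and 5 auxin-only peaks, and 1 of the 12 had CTCF. The bin with the most auxin-only peaks was chr17:29000001-30000000, with 31 auxin-only, 68 kept and 7 lost peaks. The richest bin for kept peaks, chr10:79000001-80000000, had 78 kept, 6 lost and 19 auxin-only peaks. Lost peaks lay closer to other cohesin sites, and 32.7% had another RAD21 peak within 2 kb against 17.0% of kept and 23.0% of auxin-only peaks.

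Width sets few RAD21 peaks apart, since the median is 400 bp and only 28 untreated and 37 auxin peaks are wider. The peaks named here had no CTCF peak in untreated cells. The widest kept peak, chr9:71778582-71779380 (799 bp), had YY1 in untreated cells, LDB1 and H3K27ac, and no CTCF in either condition. The only lost peak wider than 400 bp, chr3:88306842-88307497 (656 bp), had YY1 and H3K27ac without CTCF. The widest auxin-only peak, chr16:92785980-92786776 (797 bp), overlapped none of the 4 partners. The auxin-only peak chr3:151872358-151873154 (797 bp) had H3K27ac and lay at a loop anchor, and chr4:53024644-53025433 (790 bp) had H3K27ac and lay at a boundary.

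The X chromosome stood apart. It lost 2.77% of its untreated RAD21 peaks (1.87 to 4.09), against 6.11% to 10.2% on the 19 autosomes. Of its auxin peaks 31.7% were auxin-only, against 23.1% to 28.0% on the autosomes, which gives 16.3 auxin-only peaks per lost peak. CTCF on the X lost 4.88% of its peaks, against 6.35% to 8.61% on the autosomes, and its auxin-only share of 15.1% lay inside the autosomal range of 13.8% to 16.4%. LDB1 on the X lost 12.3%, inside its autosomal range of 10.7% to 15.7%. H3K27ac on the X lost 5.39%, just below its autosomal range of 5.80% to 11.1%.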

How the data were processed

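ChIP-seq peak lists and Micro-C loops, boundaries and domains were used as deposited, in mm9. Per the submitters' processing notes, the tools were deepTools 3.5.1, MACS2 2.2.7 and Bowtie2. Not given in the sources used here are the peak threshold, how 2 libraries gave 1 list, and the callers of loops and boundaries. The authors deposited RNA-seq as whole-number counts by gene symbol, with Salmon 0.13.1 and DESeq2 in the submitters' processing notes. They served only the marker check, as CPM of the column total, and 1 marker is not reported here.

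Overlap meant at least 1 bp. Alternatives were at least 50% of either peak, 200 bp around midpoints, anchors and boundaries widened by 10 kb, mid-G1 loops and the other YY1 antibody. Kept peaks were counted in the untreated list. A partner is present where an untreated peak overlaps, unless stated. Loop anchors are distinct anchor intervals 5 or 10 kb wide. The code was tested on simulated intervals and against bedtools 2.31.1, with Python 3.11.15, NumPy 2.4.6, pandas 2.3.3 and SciPy 1.17.1.

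Named regions follow a rule: per class the 3 widest peaks and the 3 bins of 1 Mb with the most peaks, and the 3 longest loops of each kind of change, outside chromosome 18, of which the text gives some. Classes and lists were chosen with earlier results of these data known.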

Additional observations from a re-analysis of the deposited data

How the results depend on the processing

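For 18 results 107 alternatives were computed, of which 22 cannot move a value (the width minimum, and stricter overlaps of peaks with identical coordinates). Of the other 85, 56 stayed within the 95% interval of the reported value and 29 did not. Of 81 that concern a difference, 7 had the other sign, all of them in comparisons of YY1 over all RAD21 peaks, and 2 of these reversed a difference whose interval excluded 0. At 50% overlap, YY1 of lost minus kept peaks was -0.55 points, YY1 of auxin-only minus kept peaks -0.082 (reversed), LDB1 of auxin-only minus kept 4.64, and the kept share with minus without YY1 0.30. With 200 bp around midpoints these were -0.55, -0.12 (reversed), 4.65 and 0.30, and H3K27ac was 4.53 for lost and 3.77 for auxin-only peaks. With anchors and boundaries widened by 10 kb, the anchor differences were -8.88 and -15.4 and the boundary differences -3.56 and -6.14. With the second YY1 antibody, the YY1 difference among peaks with CTCF was 0.084. The cause of each was not tested.

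The following were chosen after seeing the data, as was the split of the YY1 comparison by CTCF. With auxin lists, CTCF of auxin-only minus kept was -33.4 and YY1 of lost minus kept -0.21. Among RAD21 peaks more than 2 kb from any other, 93.9% were kept and 25.0% of auxin peaks were auxin-only. There the differences for lost and auxin-only peaks were -44.1 and -35.4 for CTCF, 8.68 and 6.18 for LDB1, 9.87 and 7.53 for H3K27ac and -19.8 and -22.7 for anchors. The boundary difference of lost peaks was -2.32, and the YY1 difference without CTCF 12.7.

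All 39745 untreated RAD21 peaks are at least as wide as the median of 400 bp, so a width minimum removed none. No paired analysis was possible because each condition has 1 list made from both libraries, and for the same reason no replicate was left out.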

Other observations

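YY1 peaks of other cells were set against the RAD21 classes too. YY1 peaks of any mitosis-to-G1 stage of G1E-ER4 cells lay at 10.8% of kept, 11.1% of lost and 12.3% of auxin-only RAD21 peaks. The cells of these stages had been treated with the drug nocodazole, unlike the asynchronous cells used for RAD21. YY1 peaks of the untreated CTCF-AID subline lay at 10.2%, 11.8% and 12.5%, and after auxin at 11.6%, 14.3% and 15.2%. As its name says, that subline has the degron on CTCF, so auxin there is not a depletion of YY1. For both lists of that subline the lost and auxin-only classes lay above the kept class, by 1.54 (0.38 to 2.79) and 2.28 points (1.64 to 2.93) untreated and by 2.62 (1.36 to 3.97) and 3.61 points (2.93 to 4.32) after auxin.

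Loops of mid-G1 cells gave values near those of asynchronous cells. Their 22324 anchors carried RAD21 in 72.2% of cases before auxin and 75.6% after, and 64.9% and 69.1% of the 14155 loops had RAD21 at both anchors. Chromosome 19 had the highest share of lost RAD21 peaks, 10.2%, and the lowest share of auxin-only peaks, 23.1%.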
